A study of Mus musculus with 12 samples.

Results

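Semaphorins, their plexin receptors, ephrins and the Eph receptors that bind ephrins were followed in bulk RNAseq of mouse cardiac fibroblasts reprogrammed with *Sox17*-*Erg*. A gene was included when its symbol began with Sema, Plxn, Efna, Efnb, Epha or Ephb followed by its number or plexin subfamily letter, when it was protein-coding, and when it held 10 or more counts summed over the 12 libraries. Of the 35727 genes in the deposited table, 51 symbols fitted the name pattern and 49 reached the count minimum, with *Epha6* and *Epha8* left out at 1 count each. The members were 7 class 3 semaphorins, 13 membrane semaphorins, 9 plexins, 5 ephrin-A and 3 ephrin-B ligands, 7 EphA receptors and 5 EphB receptors. Of these, 46 passed the filter on low counts and were tested, and *Efnb3*, *Epha10* and *Sema5b* did not.

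Fibroblasts came from the pooled hearts of newborn C57BL/6J mice, were selected for THY1 with magnetic beads and infected with *Sox17* and *Erg* retroviruses on the following day or served as controls. The deposited column names call the controls PMX, after the backbone of the viruses, and the sources used here do not state whether they received a virus. To limit carry-over of native endothelium, the study put a depletion of PECAM1-positive cells before the selection in the set of experiments that holds this RNAseq. The labels give EGM2 as the growth medium of both groups, without saying from when. Cells were harvested at Day 3, Day 7 or 4 weeks, and each of the 6 groups held 2 libraries. No sort before the RNA extraction is described, so that a library may hold reprogrammed and other cells of its culture. The labels do not say whether the 2 libraries of a group came from separate isolations, and p-values measure only the spread between these libraries, which may be technical. In these bulk samples, fewer cells of a type and less RNA per cell cannot be told apart.

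Semaphorins and ephrins were first known as guidance cues of growing axons and also pattern blood vessels. Class 3 semaphorins are secreted and bind neuropilins or plexins on the target cell, whereas the other semaphorins sit in the membrane and bind plexins directly. Plexins change the shape and adhesion of the cell through small GTPases. Ephrin-A ligands hold to the membrane by a lipid anchor and ephrin-B ligands span it, so that both act on Eph receptor tyrosine kinases of a touching cell. In vessels, ephrin-B2 marks arterial and EphB4 venous endothelium, and the PlexinD1 receptor of endothelial cells binds Sema3E.

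*Sox17* and *Erg* encode transcription factors of the SOX and ETS families, so the 250 bases before the start annotated by RefSeq were read. Sequences are shown for members called in the same direction at all 3 time points. A call is an adjusted p under 0.05 in edgeR's quasi-likelihood test. RefSeq promoter windows on GRCm38.p6 were found for 43 of the 49 members, in 57 windows. The RefSeq start can differ from that of GENCODE, from which the gene coordinates are given, and the windows shown for *Sema3g*, *Ephb3*, *Plxnb1* and *Efna3* reach past the GENCODE start. Capitals mark the ETS core GGAA or its reverse complement TTCC, and the SOX core ACAAT or its reverse complement ATTGT, and the motifs can share 1 base. The regions shown are those of all 9 members so called that have a window, 1 for each gene. The members called higher in *Sox17*-*Erg* samples at every time point were *Sema3g* (chr14:31217623-31217872, plus strand), *Efnb2* (chr8:8661243-8661492, minus strand), *Ephb3* (chr16:21204545-21204794, plus strand), *Plxnb1* (chr9:109095186-109095435, plus strand), *Efna4* (chr3:89338029-89338278, minus strand), *Efna3* (chr3:89322940-89323189, minus strand) and *Ephb1* (chr9:102354694-102354943, minus strand). *Sema6a* was called higher at every time point as well but has no window. Those called lower were *Plxnc1* (chr10:94944846-94945095, minus strand) and *Epha3* (chr16:63864176-63864425, minus strand). *Efna3* has 2 windows, and the one whose start lies in a GENCODE transcript is shown. Each is written 5′ to 3′ on the strand of its gene.
Sema3g: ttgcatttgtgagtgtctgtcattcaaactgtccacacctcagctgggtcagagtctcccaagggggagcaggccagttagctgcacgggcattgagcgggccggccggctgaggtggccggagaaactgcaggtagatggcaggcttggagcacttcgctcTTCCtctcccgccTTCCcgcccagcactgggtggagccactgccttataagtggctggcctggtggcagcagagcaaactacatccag
Efnb2: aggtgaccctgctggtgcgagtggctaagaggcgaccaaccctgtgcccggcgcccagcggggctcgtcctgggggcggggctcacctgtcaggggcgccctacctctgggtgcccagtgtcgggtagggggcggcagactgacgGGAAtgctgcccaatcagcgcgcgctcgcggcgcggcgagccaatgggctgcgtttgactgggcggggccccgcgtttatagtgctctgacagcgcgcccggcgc
Ephb3: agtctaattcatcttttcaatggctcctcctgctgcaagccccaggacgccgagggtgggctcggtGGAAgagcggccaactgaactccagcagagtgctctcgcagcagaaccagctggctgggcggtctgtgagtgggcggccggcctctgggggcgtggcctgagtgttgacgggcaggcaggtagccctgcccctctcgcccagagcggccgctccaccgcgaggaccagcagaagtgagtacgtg
Plxnb1: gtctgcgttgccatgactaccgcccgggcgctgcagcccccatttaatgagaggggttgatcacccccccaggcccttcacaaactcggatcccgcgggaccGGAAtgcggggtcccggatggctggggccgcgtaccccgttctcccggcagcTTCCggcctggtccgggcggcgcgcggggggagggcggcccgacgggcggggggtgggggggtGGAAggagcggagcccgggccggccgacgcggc
Efna4: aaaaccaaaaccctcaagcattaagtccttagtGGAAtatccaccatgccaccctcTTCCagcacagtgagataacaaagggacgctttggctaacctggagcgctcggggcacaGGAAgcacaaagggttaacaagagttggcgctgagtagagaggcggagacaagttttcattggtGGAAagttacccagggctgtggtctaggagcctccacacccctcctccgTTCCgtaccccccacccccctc
Efna3: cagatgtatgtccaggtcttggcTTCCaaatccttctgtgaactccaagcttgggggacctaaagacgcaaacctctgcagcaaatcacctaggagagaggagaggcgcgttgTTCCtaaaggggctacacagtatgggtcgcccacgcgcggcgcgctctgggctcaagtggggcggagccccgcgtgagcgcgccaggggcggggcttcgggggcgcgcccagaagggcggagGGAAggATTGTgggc
Ephb1: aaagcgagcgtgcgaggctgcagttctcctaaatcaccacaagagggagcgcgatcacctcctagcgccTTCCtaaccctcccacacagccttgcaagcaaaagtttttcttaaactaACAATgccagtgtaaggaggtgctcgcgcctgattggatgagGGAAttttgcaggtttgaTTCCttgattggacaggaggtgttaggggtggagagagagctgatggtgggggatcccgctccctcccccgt
Plxnc1: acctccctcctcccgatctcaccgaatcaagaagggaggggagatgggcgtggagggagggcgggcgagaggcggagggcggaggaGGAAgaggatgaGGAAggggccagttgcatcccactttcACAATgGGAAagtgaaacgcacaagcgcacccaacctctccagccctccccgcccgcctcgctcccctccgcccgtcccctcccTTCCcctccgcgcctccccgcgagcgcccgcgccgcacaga
Epha3: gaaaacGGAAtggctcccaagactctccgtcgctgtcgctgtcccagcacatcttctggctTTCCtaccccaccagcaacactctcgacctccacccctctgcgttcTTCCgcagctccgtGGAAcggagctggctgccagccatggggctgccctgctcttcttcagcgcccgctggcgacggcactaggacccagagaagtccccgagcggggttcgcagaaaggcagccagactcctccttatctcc
The ETS core stood in all 8 windows of the 7 members called higher at every time point that had a window. It also stood in 93.4% of all 32851 promoter windows of the same length. The SOX core stood in 2 of the same 8 windows (25%), those shown for *Efna3* and *Ephb1*, in 11 of the 57 windows of all members (19.3%), and in 27.7% of all windows. Of the 2 members called lower at every time point, *Plxnc1* held the SOX core and *Epha3* did not. A match is a description of the sequence and not of a bound site.

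Library totals were 19011635 to 41240449 counts on genes, and replicates correlated by 0.969 to 0.979 across genes, which are not independent, on the log2 scale. *Sox17* was at 432 to 1040 CPM (counts scaled to the library size and TMM-normalized) in *Sox17*-*Erg* libraries and at most 0.416 CPM in control libraries. *Erg* was at 17.1 to 65.2 CPM against at most 2.27 CPM, with reads of the retroviral and endogenous copies summed. Summed levels of 10 endothelial markers were 20.9 to 61.4 CPM in control and 314 to 774 CPM in *Sox17*-*Erg* libraries. Of these, 9 were tested, and 4, 5 and 7 were called higher at Day 3, Day 7 and 4 weeks. The 10 fibroblast markers were present in all libraries. They summed to 33000 to 40300 CPM in control and 26400 to 42000 CPM in *Sox17*-*Erg* libraries at Day 3, 24900 to 33200 against 32300 to 35500 CPM at Day 7, and 16700 to 20200 against 12800 to 13400 CPM at 4 weeks, where the groups did not overlap. Of these markers *Tcf21* was called lower at Day 3, *Dcn*, *Lum* and *Pdgfra* at Day 7 and all 4 at 4 weeks, and *Postn* was called higher at Day 7 and 4 weeks. DESeq2 called 5, 6 and 6 of the 10, in either direction, at the 3 time points, against 1, 4 and 5 in edgeR, where 5 had an unadjusted p under 0.05 at Day 3. The part of fibroblast numbers in the guidance genes that fell in the same libraries was not tested. Mesothelial markers, 5 genes of the heart surface, summed to 868 to 1360 CPM in control and 158 to 247 CPM in *Sox17*-*Erg* libraries at 4 weeks, and all 5 were called lower there.

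The guidance genes were called more often than genes in general at every time point. A call was a Benjamini-Hochberg adjusted p under 0.05 in edgeR's quasi-likelihood test. At Day 3, *Sox17*-*Erg* raised 10 of the 46 members, where 7.19% of all 15506 genes tested were called higher, and 7 fell, where 5.13% of all genes did. At Day 7, 10 rose (9.48% of all genes did) and 8 fell (7.93% of all genes). At 4 weeks 12 rose (11.9% of all genes) and 11 fell (11% of all genes). In either direction the members called were 37%, 39.1% and 50%, against 12.3%, 17.4% and 22.9% of all genes. Of the 46 members, 31 were called at 1 or more time points (67.4%, against 31% of all genes). For Day 3, Day 7 and 4 weeks in turn, the members had median log2 changes of -0.39, -0.31 and -0.13, and all genes tested had 0.01, 0.0058 and -0.0143.

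A set of 8 members, *Efna3*, *Efna4*, *Efnb2*, *Ephb1*, *Ephb3*, *Plxnb1*, *Sema3g* and *Sema6a*, were called higher at all 3 time points (17.4%, against 3.59% of all genes). With replicate number as a block within time points in edgeR, *Sema6a* was no longer called at Day 3 (adjusted p = 0.05). *Epha3* and *Plxnc1* were called lower at all 3 (4.35%, against 2.27%). Every *Sox17*-*Erg* library lay above both control libraries of its time point for 10 members (21.7%, against 14.6% of all genes), and below both for 13 (28.3%, against 13.6%). With 2 libraries a group, separate groups are common at a single time point, where *Sox17*-*Erg* was the higher in 34.1%, 29% and 30.3% of all genes and the lower in 29.9%, 28.8% and 32.4% at Day 3, Day 7 and 4 weeks. Of the members, *Sox17*-*Erg* was the higher in 28.3%, 30.4% and 34.8% and the lower in 50%, 45.7% and 47.8%. A block of replicate number within time points made 16 members lower at Day 3 and 13 at Day 7, in place of 7 and 8. The block raised the calls of all genes too, to 10.4% lower at Day 3 and 13.3% lower at Day 7, against 34.8% and 28.3% of the members. For the fits that left out 1 library no share of all genes is given. Their counts therefore cannot tell a loss of calls among the members from a general one. At Day 3 the counts were 4 higher and 0 lower without control replicate 1, and 3 and 4 without control replicate 2. They were 3 and 0 without *Sox17*-*Erg* replicate 1, and 10 and 4 without *Sox17*-*Erg* replicate 2 of that time point. The calls that held in each of the 12 fits that left out 1 library were 3 of 17 at Day 3, 10 of 18 at Day 7 and 13 of 23 at 4 weeks.

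**Figure D1:**
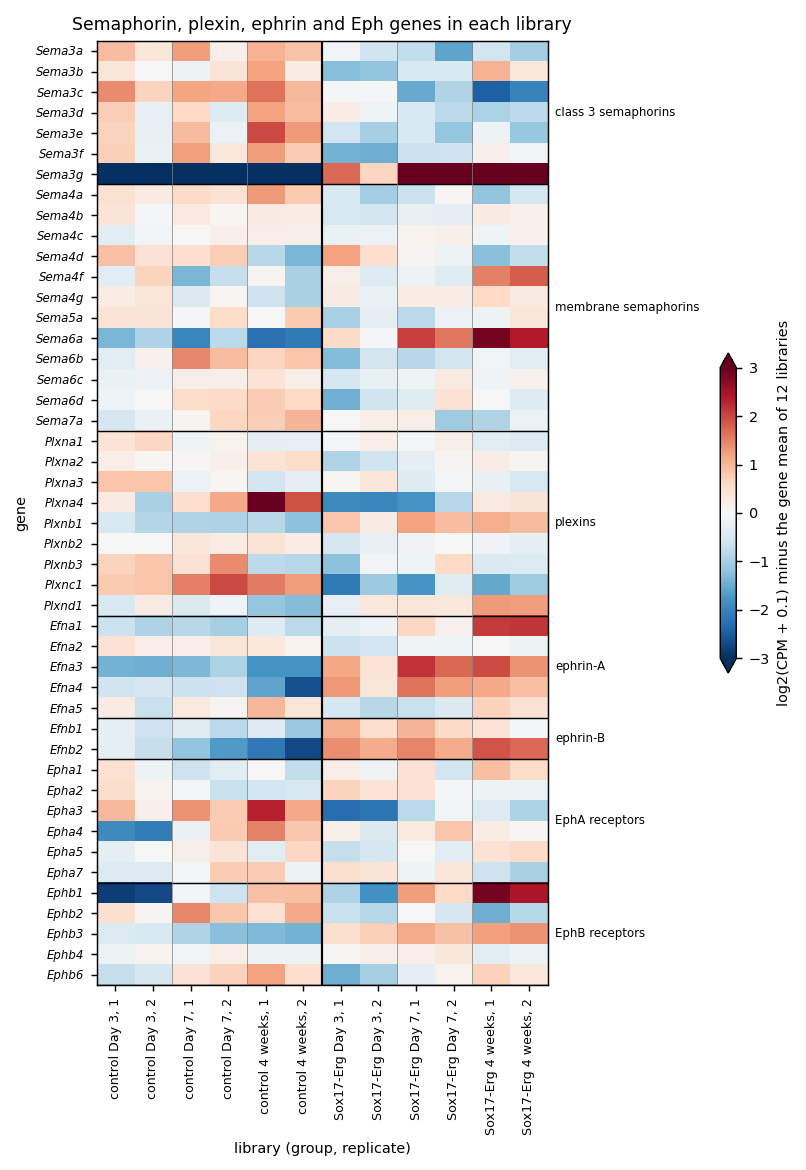
Level of the 46 tested members in each of the 12 libraries, as log2(CPM + 0.1) minus the mean of the gene over all libraries, with genes as rows grouped by family and libraries as columns grouped by treatment and time. *Sema3g* is past the lower end of the color scale in all 6 control libraries and rises from Day 3 to 4 weeks in the *Sox17*-*Erg* libraries, while most other class 3 semaphorins are higher in control libraries.

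Among the secreted class 3 semaphorins, 1 of the 7 rose and the others had negative changes at every time point. *Sema3g* (ENSMUSG00000021904, chromosome 14, 31217860 to 31230352, GRCm38), which arterial endothelium is known to express, had 0.291 and 0.277 CPM in control and 19.7 and 9.35 in *Sox17*-*Erg* libraries at Day 3, and 0.23 and 0.362 against 201 and 65.8 at Day 7. At 4 weeks *Sema3g* had 0.15 and 0.163 CPM in control and 785 and 877 in *Sox17*-*Erg* libraries. Control libraries held only 4 to 9 counts of it each, and the *Sox17*-*Erg* libraries held 217 and 389 counts at Day 3 and 22178 and 23687 at 4 weeks. The log2 changes were 5.64 ± 0.71, 8.80 ± 0.72 and 12.34 ± 0.80 (adjusted p = 0.0024, 0.00014 and 2.2e-05), and the groups did not overlap at any time point. In CPM per kb of exons, the level at 4 weeks was 183 ± 14.4 (SD, n = 2), above the mean of every other member in any group. This scale divides by all annotated exons of a gene and not by the transcripts expressed, so it compares genes only roughly. Without *Sox17*-*Erg* Day 3 replicate 1 the log2 change at Day 3 was 4.97, without *Sox17*-*Erg* Day 7 replicate 1 that at Day 7 was 7.78, and the calls held in all 12 fits that left out 1 library.

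*Sema3c*, a secreted cue needed for the outflow tract of the embryonic heart, had 6.51 and 3.84 CPM in control and 2.33 and 2.28 in *Sox17*-*Erg* libraries at Day 3, and 5.57 and 5.39 against 0.772 and 1.23 at Day 7. At 4 weeks *Sema3c* had 7.57 and 4.76 CPM in control and 0.354 and 0.519 in *Sox17*-*Erg* libraries. Its *Sox17*-*Erg* libraries lay below the control libraries throughout, with log2 changes of -1.17 ± 0.35, -2.47 ± 0.37 and -3.81 ± 0.41 (adjusted p = 0.061, 0.0027 and 0.00028), and the change deepened from Day 3 to 4 weeks. *Sema3a*, which repels axons through Nrp1, had 8.3 and 5.55 CPM in control and 4.05 and 2.8 in *Sox17*-*Erg* libraries at Day 3, and 10.4 and 4.74 against 2.54 and 1.36 at Day 7. At 4 weeks *Sema3a* had 8.97 and 7.85 CPM in control and 2.83 and 2.07 in *Sox17*-*Erg* libraries. For *Sema3a* the log2 changes were -1.02 ± 0.43, -1.94 ± 0.44 and -1.78 ± 0.43 (adjusted p = 0.15, 0.017 and 0.017), and the *Sox17*-*Erg* libraries were the lower ones at each time point. With the replicate block within time points the Day 3 change of *Sema3a* was -1.01 (adjusted p = 0.011). The Day 7 call of *Sema3a* ended without control Day 7 replicate 1, where the log2 change was -1.29, or *Sox17*-*Erg* Day 7 replicate 2 (adjusted p = 0.07 to 0.081) and in a fit of Day 7 alone (adjusted p = 0.09). The 4-week call of *Sema3a* ended without control 4 weeks replicate 1 or either *Sox17*-*Erg* library of 4 weeks (adjusted p = 0.066 to 0.1).

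The *Sox17*-*Erg* levels of *Sema3e*, a ligand that PlexinD1 binds without neuropilin, were 41.4 and 20.7 CPM at 4 weeks against 180 and 112 CPM in control libraries. The groups of *Sema3e* were separate at Day 3 and Day 7 as well, with 73 and 39.4 CPM in control and 31 and 23.1 in *Sox17*-*Erg* libraries and then 88.3 and 40.3 CPM in control and 33.3 and 20.6 in *Sox17*-*Erg* libraries. For *Sema3e* the log2 changes were -1.06 ± 0.49, -1.25 ± 0.49 and -2.23 ± 0.50 (adjusted p = 0.18, 0.11 and 0.011). With the block within time points those of Day 3 and Day 7 passed the threshold as well (-1.01 and -1.19, adjusted p = 0.0072 and 0.0027). Without control Day 7 replicate 1 the Day 7 change of *Sema3e* was -0.60 (adjusted p = 0.47) in the fit without the block. *Sema3d* had 86.3 and 43.5 CPM in control and 60.3 and 47.1 in *Sox17*-*Erg* libraries at Day 3, and 78.2 and 39.1 against 37.3 and 29.8 at Day 7. At 4 weeks *Sema3d* had 118 and 97.4 CPM in control and 26.7 and 29.9 in *Sox17*-*Erg* libraries, with overlapping groups at Day 3 and separate groups later. For *Sema3d* the log2 changes were -0.28 ± 0.36, -0.80 ± 0.36 and -1.93 ± 0.37 (adjusted p = 0.66, 0.17 and 0.006), and the blocked value at Day 7 was -0.74 (adjusted p = 0.044). The 4-week call of *Sema3e* ended without control 4 weeks replicate 1 or *Sox17*-*Erg* 4 weeks replicate 2 (adjusted p = 0.069 to 0.077), and its log2 change was -2.83 without *Sox17*-*Erg* 4 weeks replicate 1. The 4-week call of *Sema3d* ended without *Sox17*-*Erg* 4 weeks replicate 1 (adjusted p = 0.058).

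*Sema3f* was called lower at Day 3 and Day 7, and *Sema3b* at Day 3. *Sema3f*, a ligand of Nrp2, had 43.7 and 23.2 CPM in control and 9.82 and 9.52 in *Sox17*-*Erg* libraries at Day 3, and 62.9 and 33.3 against 17 and 17.4 at Day 7. At 4 weeks *Sema3f* had 63.5 and 45.1 CPM in control and 29.5 and 25.3 in *Sox17*-*Erg* libraries, and its groups did not overlap. The log2 changes were -1.79 ± 0.36, -1.49 ± 0.35 and -0.99 ± 0.34 (adjusted p = 0.016, 0.019 and 0.066), and the blocked value at 4 weeks was -0.97 (adjusted p = 0.028). *Sema3b* had 3.35 and 2.59 CPM in control and 1.01 and 1.08 in *Sox17*-*Erg* libraries at Day 3, and 2.3 and 3.38 against 1.85 and 1.85 at Day 7. At 4 weeks *Sema3b* had 6.09 and 3.01 CPM in control and 5.45 and 3.26 in *Sox17*-*Erg* libraries, so that its groups overlapped at 4 weeks. For *Sema3b* the log2 changes were -1.50 ± 0.42, -0.62 ± 0.39 and -0.07 ± 0.38 (adjusted p = 0.047, 0.32 and 0.92). The calls of *Sema3f* ended without control replicate 1 or either *Sox17*-*Erg* library of the same time point (adjusted p = 0.062 to 0.12 at Day 3 and 0.06 to 0.12 at Day 7) and, at Day 7, in a fit of that time point alone (adjusted p = 0.06). The call of *Sema3b* ended without any 1 of 8 libraries, all those of Day 3, control Day 7 replicate 2, both *Sox17*-*Erg* libraries of Day 7 and *Sox17*-*Erg* 4 weeks replicate 2 (adjusted p = 0.051 to 0.24), and with a GC-content offset or a looser count filter (adjusted p = 0.056 and 0.055).

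*Sema3d*, *Sema3a*, *Sema3e* and *Sema3c* lie in this order over 5350 kb of chromosome 5 (12383385 to 17730268, GRCm38), and all 4 were called lower at 4 weeks. Of the 5 other tested genes in that stretch, chosen after their values were seen, *Hgf*, which encodes the ligand of the Met receptor, was lower at Day 7 (log2 change -2.68, adjusted p = 0.017) and 4 weeks (-2.66, adjusted p = 0.012). *Cacna2d1*, which encodes a calcium channel subunit, was lower at Day 3 (-0.50, adjusted p = 0.03) and Day 7 (-0.68, adjusted p = 0.0052). The other 3 were not called at any time point. Taking Day 3, Day 7 and 4 weeks in turn, 1, 3 and 5 of the 5 mesothelial markers were called lower, as were 1, 2 and 3 of the 5 cardiomyocyte markers. Of all genes, 5.13%, 7.93% and 11% were called lower. DESeq2 called 4, 5 and 5 of the mesothelial and 1, 4 and 4 of the cardiomyocyte markers, counted in either direction. Mesothelial sums were 254 to 680 CPM in control and 115 to 189 CPM in *Sox17*-*Erg* libraries at Day 3, and 502 to 966 against 217 to 309 CPM at Day 7. Cardiomyocyte sums were 871 to 1500 against 321 to 394 CPM at Day 3, 605 to 855 against 350 to 445 CPM at Day 7, and 1020 to 1250 against 665 to 677 CPM at 4 weeks. Neither list overlapped between the groups at any time point, and *Sema3a*, *Sema3b*, *Sema3c* and *Sema3f* were called lower at Day 3 or Day 7 in the same libraries. The part of those cells in the semaphorin levels was not tested.

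Of the 12 tested membrane semaphorins, *Sema6a* was the 1 that rose at every time point. *Sema6a*, a transmembrane ligand of PlexinA2 and PlexinA4, had 3.09 and 4.25 CPM in control and 12.2 and 7.76 in *Sox17*-*Erg* libraries at Day 3, and 2 and 4.58 against 33.7 and 24.3 at Day 7. At 4 weeks *Sema6a* had 1.65 and 1.79 CPM in control and 60.2 and 42.6 in *Sox17*-*Erg* libraries. Its groups were separate at each time point, and the log2 changes were 1.45 ± 0.39, 3.14 ± 0.40 and 4.90 ± 0.43 (adjusted p = 0.042, 0.0012 and 9.8e-05). *Sema4g* and *Sema4f* were called higher at 4 weeks and not at Day 3 or Day 7, but their *Sox17*-*Erg* libraries lay above both controls at Day 7 too, and the change of effect from Day 3 to 4 weeks was not called (adjusted p = 0.092 and 0.19). *Sema4g* had 1.45 and 1.1 CPM in control and 3.47 and 2.78 in *Sox17*-*Erg* libraries there (log2 change 1.28 ± 0.30, adjusted p = 0.014). Before that, *Sema4g* had 2.66 and 2.96 CPM in control and 2.73 and 1.98 in *Sox17*-*Erg* libraries at Day 3 and 1.65 and 2.37 CPM in control and 2.65 and 2.68 in *Sox17*-*Erg* libraries at Day 7. *Sema4f* was near its detection limit, with 1 to 11 counts in each control library, and had 0.276 and 0.0813 CPM in control and 0.92 and 1.15 in *Sox17*-*Erg* libraries at 4 weeks (log2 change 2.42 ± 0.69, adjusted p = 0.033). At Day 3 its libraries overlapped, with 0.182 and 0.462 CPM in control and 0.304 and 0.172 in *Sox17*-*Erg* libraries. With 0.0384 and 0.121 CPM in control and 0.221 and 0.176 in *Sox17*-*Erg* libraries at Day 7, the *Sox17*-*Erg* to control ratio of summed counts was 2.59 with a 95% counting interval of 0.784 to 11.

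The Day 3 call of *Sema6a* ended with the block within time points (log2 change 1.43, adjusted p = 0.05) and without any 1 of 7 libraries, both controls and *Sox17*-*Erg* replicate 1 of Day 3 and all 4 of 4 weeks (adjusted p = 0.058 to 0.29). The Day 7 change of *Sema6a* was 3.86 without control Day 7 replicate 2. The 4-week call of *Sema4g* ended without control replicate 2 or *Sox17*-*Erg* replicate 1 of 4 weeks (adjusted p = 0.076 to 0.087). That of *Sema4f* ended without either *Sox17*-*Erg* library of Day 7 or any library of 4 weeks (adjusted p = 0.051 to 0.16) and in a fit of 4 weeks alone (adjusted p = 0.05), and its log2 change was 3.59 without control 4 weeks replicate 1.

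Lower membrane semaphorins were each called at 1 time point. *Sema4a* had 2 and 1.71 CPM in control and 1.01 and 0.646 in *Sox17*-*Erg* libraries at Day 3, and 2.15 and 1.97 against 0.882 and 1.49 at Day 7. At 4 weeks *Sema4a* had 3.58 and 2.52 CPM in control and 0.566 and 0.963 in *Sox17*-*Erg* libraries, and its log2 changes were -1.17 ± 0.41, -0.81 ± 0.40 and -2.0 ± 0.41 (adjusted p = 0.095, 0.2 and 0.0076). *Sema4b* had 14.7 and 10.7 CPM in control and 7.95 and 7.58 in *Sox17*-*Erg* libraries at Day 3, and 13.7 and 11.6 against 9.62 and 9.27 at Day 7. At 4 weeks *Sema4b* had 13.3 and 13 CPM in control and 13.3 and 12.3 in *Sox17*-*Erg* libraries. The log2 changes of *Sema4b* ran from -0.71 ± 0.17 at Day 3 (adjusted p = 0.03) to -0.03 ± 0.17 at 4 weeks (adjusted p = 0.91). *Sema6b* had 2.4 and 3.28 CPM in control and 1.16 and 2.03 in *Sox17*-*Erg* libraries at Day 3, and 8.33 and 5.79 against 1.63 and 2.02 at Day 7. At 4 weeks *Sema6b* had 4.71 and 5.41 CPM in control and 2.83 and 2.33 in *Sox17*-*Erg* libraries. Both *Sox17*-*Erg* libraries of *Sema4a* and *Sema6b* lay below their controls at each time point, and *Sema4b* overlapped at 4 weeks. For *Sema6b* the log2 changes were -0.82 ± 0.33, -1.96 ± 0.32 and -0.97 ± 0.31 (adjusted p = 0.13, 0.0042 and 0.055), with a blocked value of -0.97 at 4 weeks (adjusted p = 0.038). The call of *Sema4a* ended without control or *Sox17*-*Erg* replicate 1 of 4 weeks (adjusted p = 0.053 to 0.066). That of *Sema4b* ended without control replicate 1 or either *Sox17*-*Erg* library of Day 3 (adjusted p = 0.1 to 0.18), in a fit of Day 3 alone (adjusted p = 0.068) and with a GC-content offset (adjusted p = 0.06).

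The other 6 tested membrane semaphorins, *Sema4c*, *Sema4d*, *Sema5a*, *Sema6c*, *Sema6d* and *Sema7a*, were not called at any time point. *Sema6d*, which acts through PlexinA1 in the developing heart, was the most abundant membrane semaphorin in control samples, at 32.7 ± 2.9 CPM per kb (SD, n = 2) at 4 weeks, against 18 ± 3.43 in *Sox17*-*Erg* samples. Its *Sox17*-*Erg* libraries were below the controls at each time point, and the blocked log2 changes were -0.98 at Day 3 (adjusted p = 0.024) and -0.88 at 4 weeks (adjusted p = 0.025). *Sema5a* gave blocked changes of -1.01 at Day 3 (adjusted p = 0.0079) and -0.75 at Day 7 (adjusted p = 0.017). *Sema4d*, the ligand of PlexinB1, had log2 changes of 0.24, -0.69 and 0.10 (adjusted p = 0.69, 0.23 and 0.89).

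**Figure D2:**
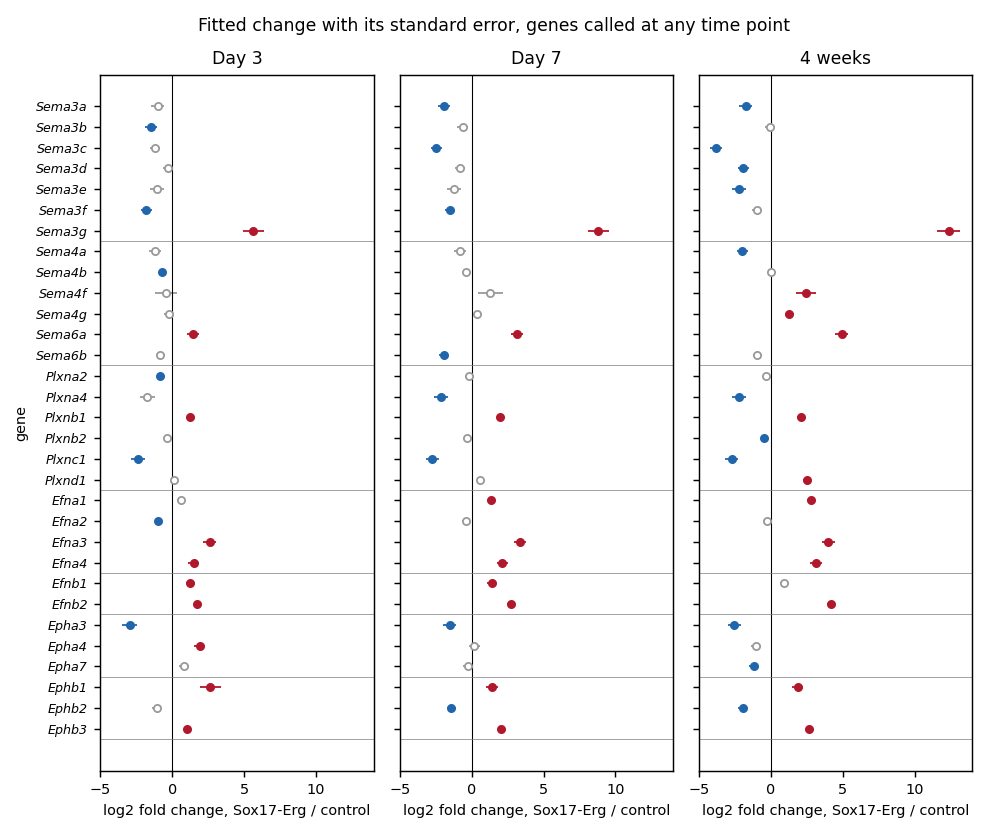
Fitted log2 fold changes of *Sox17*-*Erg* over control with their standard errors for the 31 members called at any time point, in 1 panel per time point, with filled points for called changes (red higher, blue lower) and open points for the others. *Sema3g* reaches 12.34 at 4 weeks, past every other member, and *Sema3c* and *Plxnc1* lie farthest below 0 there.

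Plexins, the semaphorin receptors, split between 2 that rose and 4 that fell at 1 or more time points. *Plxnd1* (ENSMUSG00000030123, chromosome 6, 115954811 to 115995005, GRCm38), the endothelial plexin, had 45.1 and 72.9 CPM in control and 52.4 and 76.8 in *Sox17*-*Erg* libraries at Day 3, and 45.5 and 56.7 against 77.8 and 76.6 at Day 7. At 4 weeks *Plxnd1* had 27.8 and 25 CPM in control and 150 and 148 in *Sox17*-*Erg* libraries. Its groups overlapped at Day 3 and were separate later, with log2 changes of 0.13 ± 0.24, 0.59 ± 0.24 and 2.5 ± 0.25 (adjusted p = 0.75, 0.12 and 0.00019). The blocked value at Day 7 was 0.60 (adjusted p = 0.0085). *Plxnb1*, a receptor of Sema4D that pairs with Met, had 10.4 and 7.86 CPM in control and 25.8 and 17.3 in *Sox17*-*Erg* libraries at Day 3, and 7.72 and 7.6 against 33.6 and 27.5 at Day 7. At 4 weeks *Plxnb1* had 8.04 and 6.1 CPM in control and 30.9 and 28.3 in *Sox17*-*Erg* libraries. Its groups were separate and its log2 changes were 1.23 ± 0.23, 2.0 ± 0.23 and 2.06 ± 0.23 (adjusted p = 0.012, 0.00076 and 0.00036), and the Day 3 call ended without control replicate 2 or *Sox17*-*Erg* replicate 1 of Day 3 (adjusted p = 0.1 to 0.12).

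*Plxnc1*, the receptor of Sema7A, had 11.6 and 11.9 CPM in control and 1.47 and 3.06 in *Sox17*-*Erg* libraries at Day 3, and 19.3 and 26.8 against 1.9 and 5.14 at Day 7. At 4 weeks *Plxnc1* had 19.9 and 16.1 CPM in control and 2.23 and 3.15 in *Sox17*-*Erg* libraries, and its *Sox17*-*Erg* libraries were below the controls throughout. The log2 changes were -2.36 ± 0.47, -2.74 ± 0.46 and -2.74 ± 0.46 (adjusted p = 0.016, 0.0044 and 0.0031). *Plxna4*, which takes part in Sema3A and Sema6A responses, had 28.2 and 12.2 CPM in control and 6.28 and 6.03 in *Sox17*-*Erg* libraries at Day 3, and 33.8 and 52.8 against 6.86 and 13.2 at Day 7. At 4 weeks *Plxna4* had 190 and 90.2 CPM in control and 29 and 31.4 in *Sox17*-*Erg* libraries. Its level climbed in control samples with time, and the log2 changes were -1.72 ± 0.50, -2.12 ± 0.49 and -2.21 ± 0.48 (adjusted p = 0.054, 0.018 and 0.0099), with a blocked value of -1.61 at Day 3 (adjusted p = 0.021). Without control Day 3 replicate 1 the Day 3 change of *Plxna4* was -0.98. Without *Sox17*-*Erg* replicate 2 of the time point the change of *Plxnc1* was -3.0 at Day 3 and -3.63 at Day 7, and its Day 3 call ended without either control or *Sox17*-*Erg* replicate 1 of Day 3 (adjusted p = 0.071 to 0.14). For *Plxna4* the Day 7 call ended without control replicate 2 or *Sox17*-*Erg* replicate 1 (adjusted p = 0.093 to 0.15), and the 4-week call ended without control replicate 1, where the change was -1.58, or either *Sox17*-*Erg* library (adjusted p = 0.054 to 0.076).

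*Plxna2*, a co-receptor of neuropilins, was called lower at Day 3, with 144 and 132 CPM in control and 67.4 and 83.1 in *Sox17*-*Erg* libraries (log2 change -0.87 ± 0.15, adjusted p = 0.01). *Plxna2* had 130 and 140 CPM in control and 103 and 134 in *Sox17*-*Erg* libraries at Day 7 and 169 and 186 CPM in control and 147 and 134 in *Sox17*-*Erg* libraries at 4 weeks. *Plxnb2*, the receptor of Sema4C, was the most abundant plexin in every group, from 77 ± 11 CPM per kb in *Sox17*-*Erg* samples at Day 3 to 123 ± 11.8 in control samples at 4 weeks (SD, n = 2). It had 762 and 770 CPM in control and 535 and 655 in *Sox17*-*Erg* libraries at Day 3, and 961 and 892 against 712 and 763 at Day 7. At 4 weeks *Plxnb2* had 1020 and 887 CPM in control and 711 and 636 in *Sox17*-*Erg* libraries, and was called lower at 4 weeks (-0.50 ± 0.15, adjusted p = 0.04), after log2 changes of -0.36 and -0.33. That call was of small size and ended without any 1 library but those of *Sox17*-*Erg* Day 3 (adjusted p = 0.05 to 0.21). It also ended in a fit of 4 weeks alone (adjusted p = 0.12), with a looser filter or a GC-content offset (adjusted p = 0.06 for both) and with the replicate number as 1 block over all libraries (adjusted p = 0.052). The *Sox17*-*Erg* libraries of *Plxna2* were below both controls at 4 weeks as well, and the change of its effect from Day 3 was not called (adjusted p = 0.25). The call of *Plxna2* ended without control or *Sox17*-*Erg* replicate 1 of Day 3 (adjusted p = 0.074 to 0.1). *Plxna1*, *Plxna3* and *Plxnb3* were not called, and the blocked changes of *Plxna1* and *Plxna3* at Day 3 were -0.45 and -0.62 (adjusted p = 0.02 and 0.049).

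**Figure D3:**
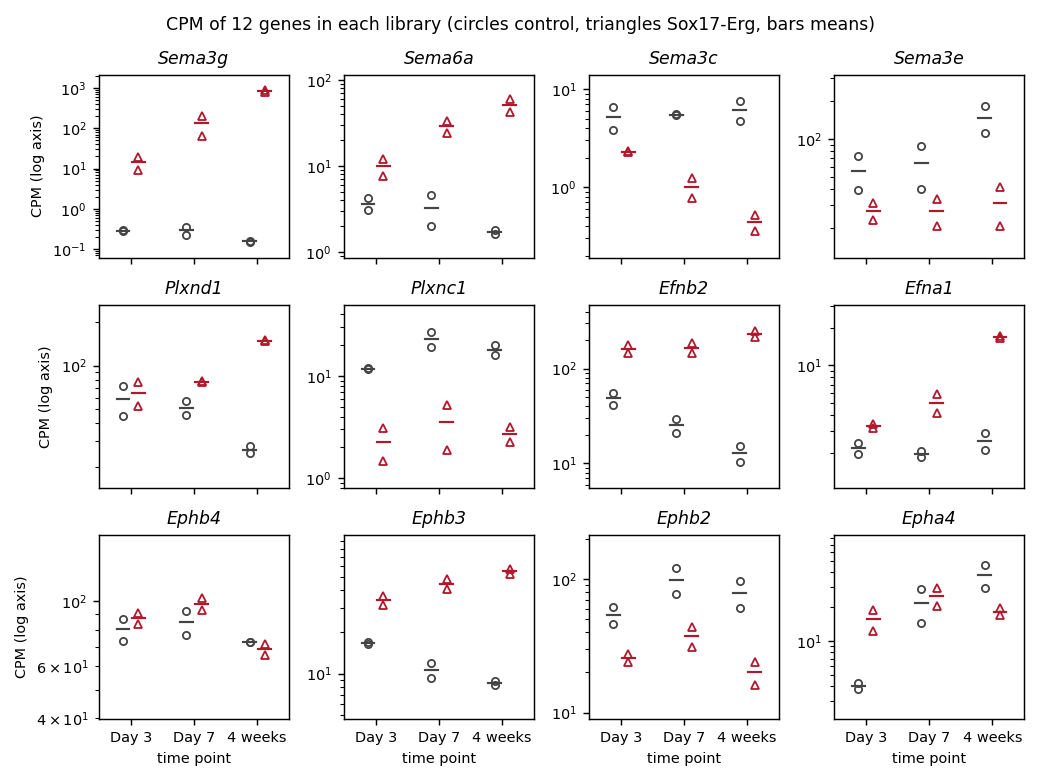
CPM of 12 members in each library on log axes, with time points along x, circles for control and triangles for *Sox17*-*Erg* libraries, and a bar for the mean of the 2 libraries. *Sema3g*, *Sema6a*, *Efnb2* and *Ephb3* separate at Day 3 and widen with time, *Plxnd1* and *Efna1* separate most at 4 weeks, *Ephb4* stays between 65.4 and 102 CPM in all libraries, and *Epha4* changes order between Day 3 and 4 weeks.

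Of the 5 ephrin-A ligands, *Efna1*, *Efna3* and *Efna4* were higher at Day 7 and 4 weeks, and *Efna2* and *Efna5* had negative changes at every time point. *Efna1*, an inflammation-responsive ephrin of endothelial cells, had 2.37 and 1.94 CPM in control and 3.14 and 3.4 in *Sox17*-*Erg* libraries at Day 3, and 2.07 and 1.85 against 5.87 and 4.13 at Day 7. At 4 weeks *Efna1* had 2.88 and 2.11 CPM in control and 16.6 and 17.1 in *Sox17*-*Erg* libraries, and every *Sox17*-*Erg* library was above the controls. For *Efna1* the log2 changes were 0.60 ± 0.24, 1.35 ± 0.24 and 2.74 ± 0.24 (adjusted p = 0.14, 0.0059 and 0.0001). *Efna3* had 0.291 and 0.277 CPM in control and 2.23 and 1.29 in *Sox17*-*Erg* libraries at Day 3, and 0.307 and 0.442 against 4.6 and 3.34 at Day 7. At 4 weeks *Efna3* had 0.2 and 0.203 CPM in control and 3.93 and 2.56 in *Sox17*-*Erg* libraries. Its control libraries held 5 to 11 counts each, and the log2 changes were 2.60 ± 0.43, 3.40 ± 0.42 and 3.98 ± 0.44 (adjusted p = 0.0083, 0.00099 and 0.00033). *Efna4* had 1.96 and 2.13 CPM in control and 7.59 and 3.92 in *Sox17*-*Erg* libraries at Day 3, and 1.92 and 1.93 against 9.57 and 7.38 at Day 7. At 4 weeks *Efna4* had 0.952 and 0.407 CPM in control and 6.8 and 5.78 in *Sox17*-*Erg* libraries, and its log2 changes were 1.49 ± 0.39, 2.14 ± 0.39 and 3.15 ± 0.42 (adjusted p = 0.04, 0.0067 and 0.00093). In all 3 genes the groups were separate at each time point.

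Leaving out *Sox17*-*Erg* Day 7 replicate 1 ended the Day 7 call of *Efna1* (adjusted p = 0.053), as did a fit of Day 7 alone (adjusted p = 0.065). The Day 3 call of *Efna3* ended without either control or *Sox17*-*Erg* replicate 1 of Day 3 (adjusted p = 0.067 to 0.071). That of *Efna4* ended without any 1 of 8 libraries, which were both controls of Day 3 and of Day 7, *Sox17*-*Erg* replicate 1 of Day 3, *Sox17*-*Erg* replicate 2 of Day 7 and both *Sox17*-*Erg* libraries of 4 weeks (adjusted p = 0.052 to 0.32), and in a fit of Day 3 alone (adjusted p = 0.065). Its log2 change was 0.90 at Day 3 without *Sox17*-*Erg* Day 3 replicate 1 and 3.93 at 4 weeks without control 4 weeks replicate 1.

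These 3 genes lie within 66.3 kb of chromosome 3 (89271733 to 89338028, GRCm38), all on the minus strand. The nearest tested genes outside, named after their values were seen, were *Slc50a1* on the *Efna1* side and *Adam15* on the *Efna4* side, and neither was called at any time point, with log2 changes between -0.40 and -0.08. Among the other ephrin-A ligands, *Efna2* was lower at Day 3, with 2.87 and 2.45 CPM in control and 1.32 and 1.38 in *Sox17*-*Erg* libraries (-0.98 ± 0.24, adjusted p = 0.034). *Efna2* then had 2.46 and 2.73 CPM in control and 1.96 and 1.93 in *Sox17*-*Erg* libraries at Day 7 and 2.66 and 2.28 CPM in control and 2.12 and 1.89 in *Sox17*-*Erg* libraries at 4 weeks. Its call ended without any 1 library of Day 3 (adjusted p = 0.092 to 0.19), in a fit of Day 3 alone (adjusted p = 0.08) and with a GC-content offset (adjusted p = 0.051). *Efna5* was not called against control, and its blocked change at Day 7 was -0.75 (adjusted p = 0.026).

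**Figure D4:**
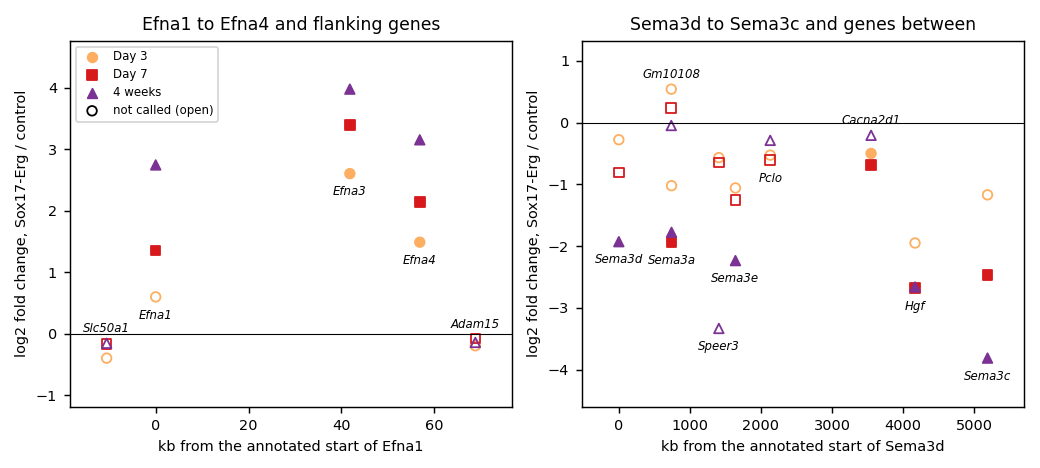
Log2 fold changes at 3 time points for the ephrin-A genes of chromosome 3 with their flanking genes (left) and for the class 3 semaphorins of chromosome 5 with the tested genes between them (right), against the distance in kb from the annotated start of the first member. Circles, squares and triangles are Day 3, Day 7 and 4 weeks, and filled points are called changes. *Efna1*, *Efna3* and *Efna4* lie above 0 between flanking genes near 0, and *Sema3d*, *Sema3a*, *Sema3e* and *Sema3c* lie at -1.78 or lower at 4 weeks.

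Both tested ephrin-B ligands rose. *Efnb2* (ENSMUSG00000001300, chromosome 8, 8617434 to 8661242, GRCm38), which encodes the arterial ephrin-B2, had 55.6 and 41.5 CPM in control and 177 and 147 in *Sox17*-*Erg* libraries at Day 3, and 29.8 and 20.8 against 185 and 146 at Day 7. At 4 weeks *Efnb2* had 15.2 and 10.3 CPM in control and 251 and 218 in *Sox17*-*Erg* libraries. Its *Sox17*-*Erg* libraries were far above the controls, and the control level dropped with time. For *Efnb2* the log2 changes were 1.74 ± 0.25, 2.71 ± 0.26 and 4.19 ± 0.28 (adjusted p = 0.0043, 0.00029 and 2.3e-05), and the calls held in all 12 fits that left out 1 library. *Efnb1* had 77.4 and 60.1 CPM in control and 197 and 131 in *Sox17*-*Erg* libraries at Day 3, and 71.5 and 52.7 against 189 and 138 at Day 7. At 4 weeks *Efnb1* had 70.7 and 43 CPM in control and 124 and 90.3 in *Sox17*-*Erg* libraries. Its groups were separate as well, with log2 changes of 1.25 ± 0.31, 1.40 ± 0.31 and 0.91 ± 0.31 (adjusted p = 0.034, 0.016 and 0.062), and the blocked value at 4 weeks was 0.94 (adjusted p = 0.00094). The Day 3 call of *Efnb1* ended without either control or *Sox17*-*Erg* replicate 1 of Day 3 (adjusted p = 0.1 to 0.26), and its Day 7 call without control replicate 2 or *Sox17*-*Erg* replicate 1 of Day 7 (adjusted p = 0.11).

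EphB receptors, the partners of ephrin-B ligands, did not move as 1 group. *Ephb4* (ENSMUSG00000029710, chromosome 5, 137350109 to 137378669, GRCm38), the venous receptor, had 73 and 87.1 CPM in control and 83.4 and 91 in *Sox17*-*Erg* libraries at Day 3, and 76.9 and 92.7 against 93.1 and 102 at Day 7. At 4 weeks *Ephb4* had 72.5 and 72.7 CPM in control and 65.4 and 71.6 in *Sox17*-*Erg* libraries. The groups overlapped at Day 3, and the *Sox17*-*Erg* libraries lay just above the controls at Day 7 and just below them at 4 weeks. For *Ephb4* the log2 changes were 0.12 ± 0.13, 0.20 ± 0.13 and -0.08 ± 0.13 (adjusted p = 0.56, 0.31 and 0.69), and it was not called at any time point. A stretch of 33 exon bases of *Ephb4* is shared with *Zan* on the opposite strand, or 0.711% of its exons. *Ephb3* had 16.8 and 16.3 CPM in control and 31.3 and 36.6 in *Sox17*-*Erg* libraries at Day 3, and 11.9 and 9.36 against 48.1 and 40.9 at Day 7. At 4 weeks *Ephb3* had 8.9 and 8.34 CPM in control and 52.7 and 56.7 in *Sox17*-*Erg* libraries, a rise in *Sox17*-*Erg* samples beside a fall in control samples. For *Ephb3* the log2 changes were 1.04 ± 0.15, 2.06 ± 0.15 and 2.66 ± 0.15 (adjusted p = 0.0043, 9.6e-05 and 1.7e-05), with separate groups and calls held in all 12 fits that left out 1 library.

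*Ephb1* had 0.0364 and 0.0462 CPM in control and 0.405 and 0.172 in *Sox17*-*Erg* libraries at Day 3, and 0.806 and 0.522 against 2.21 and 1.36 at Day 7. At 4 weeks *Ephb1* had 1.68 and 1.71 CPM in control and 6.97 and 5.15 in *Sox17*-*Erg* libraries, and was higher in *Sox17*-*Erg* samples at a low level. The 2 control libraries of Day 3 held 1 count each, and the ratio of the summed counts there was 6.86 with a 95% counting interval of 1.53 to 63.1. For *Ephb1* the log2 changes were 2.66 ± 0.72, 1.43 ± 0.41 and 1.84 ± 0.38 (adjusted p = 0.043, 0.042 and 0.0087). *Ephb2*, an ephrin-B receptor of stromal and neural cells, had 61.2 and 46.4 CPM in control and 27.6 and 24.1 in *Sox17*-*Erg* libraries at Day 3, and 120 and 77 against 43.6 and 30.8 at Day 7. At 4 weeks *Ephb2* had 60.7 and 96.3 CPM in control and 16 and 24.1 in *Sox17*-*Erg* libraries, with *Sox17*-*Erg* libraries below the controls at each time point. For *Ephb2* the log2 changes were -1.06 ± 0.32, -1.40 ± 0.31 and -1.97 ± 0.32 (adjusted p = 0.058, 0.016 and 0.0026), and the blocked value at Day 3 was -1.05 (adjusted p = 0.0016). *Ephb6*, a receptor without kinase activity, was not called against control, and its blocked changes were -0.64 at Day 3 (adjusted p = 0.044) and -0.67 at Day 7 (adjusted p = 0.024).

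The Day 3 call of *Ephb1* ended without any 1 of 8 libraries, which were both controls and *Sox17*-*Erg* replicate 1 of Day 3, control Day 7 replicate 1 and all 4 of 4 weeks (adjusted p = 0.054 to 0.39), with DESeq2 (adjusted p = 0.084) and with a looser filter (adjusted p = 0.056). The log2 change of *Ephb1* at Day 3 was 1.92 without *Sox17*-*Erg* Day 3 replicate 1. Its Day 7 call ended without either control of Day 3 or Day 7, *Sox17*-*Erg* Day 7 replicate 1 or any library of 4 weeks (adjusted p = 0.059 to 0.3) and in a fit of Day 7 alone (adjusted p = 0.14). At 4 weeks the call of *Ephb1* ended without control or *Sox17*-*Erg* replicate 1 of 4 weeks (adjusted p = 0.059 to 0.072). The Day 7 call of *Ephb2* ended without control replicate 1 or *Sox17*-*Erg* replicate 2 of Day 7 (adjusted p = 0.071 to 0.074) and in a fit of Day 7 alone (adjusted p = 0.053).

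Among the 6 tested EphA receptors, *Epha3* was lower throughout and *Epha4* turned with time. *Epha3* had 13.1 and 7.4 CPM in control and 1.27 and 1.38 in *Sox17*-*Erg* libraries at Day 3, and 17.1 and 11.3 against 3.75 and 6.24 at Day 7. At 4 weeks *Epha3* had 33.8 and 14.7 CPM in control and 4.92 and 3.37 in *Sox17*-*Erg* libraries, with separate groups and log2 changes of -2.95 ± 0.51, -1.52 ± 0.45 and -2.55 ± 0.46 (adjusted p = 0.0096, 0.048 and 0.0045). *Epha4*, which binds both ephrin classes, had 4.29 and 3.79 CPM in control and 18.6 and 12.3 in *Sox17*-*Erg* libraries at Day 3, and 14.4 and 28.6 against 20.1 and 29.4 at Day 7. At 4 weeks *Epha4* had 46.7 and 29.1 CPM in control and 19.4 and 16.9 in *Sox17*-*Erg* libraries. Its *Sox17*-*Erg* libraries were above the controls at Day 3, overlapped them at Day 7 and were below them at 4 weeks, with log2 changes of 1.93 ± 0.38, 0.20 ± 0.35 and -1.07 ± 0.35 (adjusted p = 0.016, 0.74 and 0.059). The blocked value at 4 weeks was -1.03 (adjusted p = 0.0047). *Epha7* had 8.48 and 8.55 CPM in control and 15.7 and 14.8 in *Sox17*-*Erg* libraries at Day 3, and 10.8 and 19.3 against 10.4 and 14.5 at Day 7. At 4 weeks *Epha7* had 19.3 and 10.2 CPM in control and 7.33 and 5.67 in *Sox17*-*Erg* libraries, with the *Sox17*-*Erg* libraries above the controls at Day 3, overlapping them at Day 7 and below them at 4 weeks. It had log2 changes of 0.84 ± 0.35, -0.28 ± 0.34 and -1.19 ± 0.35 (adjusted p = 0.14, 0.61 and 0.037) and a blocked value of 0.84 at Day 3 (adjusted p = 0.017).

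*Epha2*, the receptor through which ephrin-A1 acts in vessels, had 81.4 and 60.6 CPM in control and 89.8 and 75.1 in *Sox17*-*Erg* libraries at Day 3, and 54.8 and 35.7 against 76.3 and 54.5 at Day 7. At 4 weeks *Epha2* had 37.7 and 40.6 CPM in control and 51 and 49.6 in *Sox17*-*Erg* libraries. It was not called against control, with log2 changes of 0.21 ± 0.23, 0.53 ± 0.23 and 0.36 ± 0.23 (adjusted p = 0.58, 0.15 and 0.3), and its blocked values at Day 7 and 4 weeks were 0.54 and 0.36 (adjusted p = 0.0078 and 0.029). *Epha1* and *Epha5* were not called, and 236 exon bases of *Epha1* (6.01%) lie over the far more abundant *Zyx* on the opposite strand.

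The Day 3 call of *Epha3* ended without control or *Sox17*-*Erg* replicate 1 of Day 3 (adjusted p = 0.061 to 0.097). Its Day 7 call ended without any 1 library but the controls of 4 weeks (adjusted p = 0.053 to 0.3), in a fit of Day 7 alone (adjusted p = 0.069) and with a looser filter (adjusted p = 0.055). The 4-week change of *Epha3* was -1.82 without control 4 weeks replicate 1. The Day 3 call of *Epha4* ended without either control or *Sox17*-*Erg* replicate 1 of Day 3 (adjusted p = 0.088 to 0.13). The 4-week call of *Epha7* ended without any 1 library of Day 3, control 4 weeks replicate 1 or either *Sox17*-*Erg* library of 4 weeks (adjusted p = 0.052 to 0.27) and in a fit of 4 weeks alone (adjusted p = 0.069). The change of *Epha7* was then -0.65 without control 4 weeks replicate 1.

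Levels of ligands and receptors were compared per kb of exons, since counts grow with gene length. The length is that of all annotated exons, so these comparisons between genes are approximate. In control samples at 4 weeks the ephrin-B ligands stood at 16.5 ± 5.68 (*Efnb1*) and 1.86 ± 0.503 CPM per kb (*Efnb2*, SD, n = 2), and in *Sox17*-*Erg* samples at 31.1 ± 6.95 and 34.2 ± 3.38, which differed by less than the SD of *Efnb1*. The receptor *Ephb4* stood at 15.6 ± 0.0272 in control and 14.8 ± 0.954 CPM per kb in *Sox17*-*Erg* samples there, and was the most abundant EphB receptor in every group. *Epha2* was the most abundant EphA receptor in every group, from 8.37 ± 0.442 CPM per kb in control samples at 4 weeks to 17.6 ± 2.22 in *Sox17*-*Erg* samples at Day 3. At 4 weeks *Plxnd1* reached 20.4 ± 0.179 CPM per kb in *Sox17*-*Erg* samples against 3.62 ± 0.278 in control samples, while its ligand *Sema3e* stood at 3.34 ± 1.58 against 15.7 ± 5.15.

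**Figure D5:**
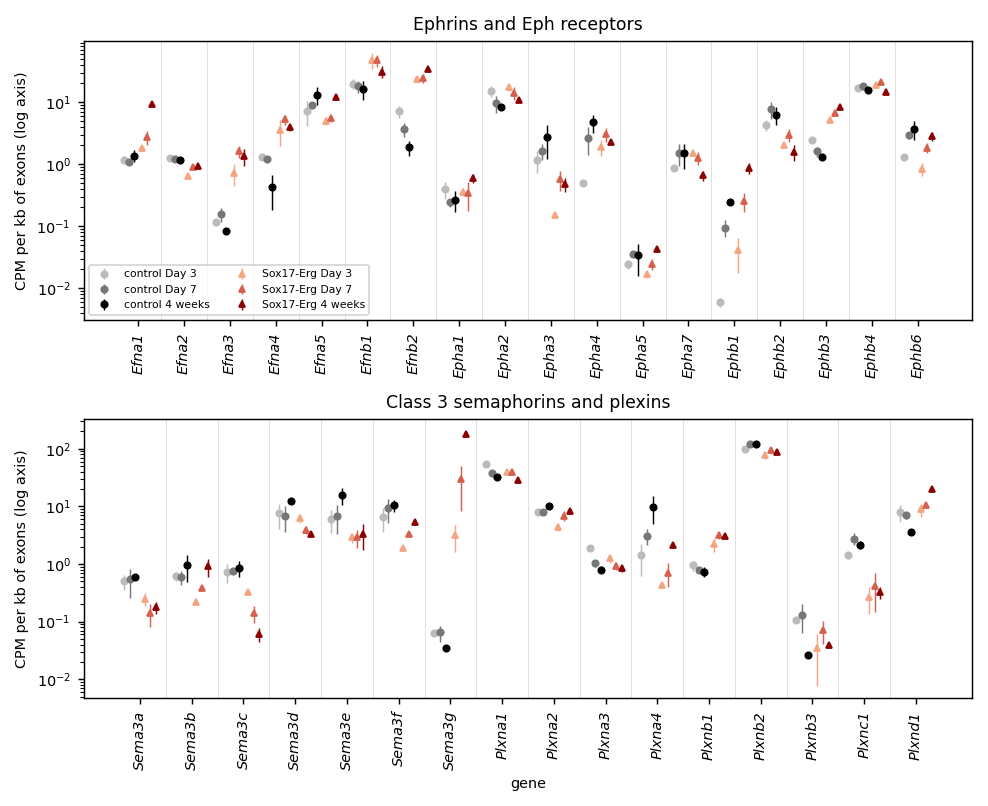
Mean CPM per kb of exons, on log axes, for the tested ephrins and Eph receptors (top) and for class 3 semaphorins and plexins (bottom), with error bars of 1 SD over the 2 libraries of a group, circles for control and triangles for *Sox17*-*Erg* samples, and darker shades for later time points. *Efnb2* and *Ephb3* move apart between the groups while *Ephb4* stays between 14.8 and 21.1, and *Sema3g* passes *Plxnb2* in *Sox17*-*Erg* samples at 4 weeks.

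The effect of *Sox17*-*Erg* was then compared between Day 3 and 4 weeks in the same model, as an interaction of treatment and time. It differed for 8 members (17.4%, against 3.21% of all genes). In 6 of them it moved upward (13%, against 2.22%), by 6.70 ± 1.46 for *Sema3g* (adjusted p = 0.043), 3.45 ± 0.55 for *Sema6a* (0.013), 2.45 ± 0.35 for *Efnb2* (0.0083), 2.36 ± 0.34 for *Plxnd1* (0.0083), 2.14 ± 0.34 for *Efna1* (0.012) and 1.63 ± 0.21 for *Ephb3* (0.0056) on the log2 scale. *Epha4* and *Sema3c* moved downward (4.35%, against 0.987%), by -3.0 ± 0.52 (adjusted p = 0.019) and -2.64 ± 0.53 (adjusted p = 0.033). With the block within time points 13 members differed, the added ones being *Epha7*, *Ephb2*, *Plxnb1*, *Sema3d* and *Sema3e* (adjusted p = 0.0088, 0.016, 0.042, 0.023 and 0.024). That was 28.3% of the members, against 6.89% of all genes with the block.

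The difference held in all 12 fits that left out 1 library for *Efnb2*, *Ephb3* and *Plxnd1*. For *Efna1* it ended without control Day 3 replicate 1 (adjusted p = 0.057), and for *Sema6a* without *Sox17*-*Erg* Day 3 replicate 2, control 4 weeks replicate 1 or *Sox17*-*Erg* 4 weeks replicate 1 (adjusted p = 0.051 to 0.061). For *Epha4* it ended without either control or *Sox17*-*Erg* replicate 1 of Day 3, control 4 weeks replicate 1 or either *Sox17*-*Erg* library of 4 weeks (adjusted p = 0.059 to 0.085). For *Sema3c* it ended without control Day 3 replicate 2, either *Sox17*-*Erg* library of Day 3, control 4 weeks replicate 1 or either *Sox17*-*Erg* library of 4 weeks (adjusted p = 0.069 to 0.15). For *Sema3g* it ended without any 1 library but *Sox17*-*Erg* Day 3 replicate 1 and the 2 *Sox17*-*Erg* libraries of Day 7 (adjusted p = 0.063 to 0.21), and with a GC-content offset (adjusted p = 0.05).

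Against Day 7, edgeR called no member for a change of effect, and it called 0.0838% of all genes from Day 3 to Day 7 (0.0322% upward, 0.0516% downward) and 0.0387% from Day 7 to 4 weeks (0.0258% upward, 0.0129% downward). From Day 3 to Day 7, 11 members had an unadjusted p under 0.05 (8.91% of all genes did), and DESeq2 called 2, *Ephb3* and *Sema3g*. From Day 7 to 4 weeks, 8 members had an unadjusted p under 0.05 (6.47% of all genes), and DESeq2 called 3, *Efnb2*, *Plxnd1* and *Sema3g*. With the block within time points edgeR called *Epha4* and *Ephb3* in the first and *Efnb2* and *Plxnd1* in the second comparison.

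Changes with time were then read within each group. Between Day 3 and 4 weeks 15 members rose in *Sox17*-*Erg* samples (32.6%, against 15.1% of all genes) and 5 fell (10.9%, against 15.6%). In control samples 4 rose (8.7%, against 13.9%) and 10 fell (21.7%, against 12.6%). In either direction the shares were 43.5% against 30.7% of all genes in *Sox17*-*Erg*, and 30.4% against 26.5% in control samples, where the members' share was near that of all genes. *Efnb2* fell in control samples by 1.92 on the log2 scale (adjusted p = 0.0013) and had a change of 0.53 in *Sox17*-*Erg* samples (adjusted p = 0.13, and 0.54 with adjusted p = 0.024 with the block). *Ephb3* and *Plxnd1* moved both ways, with -0.94 and -1.16 in control (adjusted p = 0.0028 and 0.0086) and 0.69 and 1.21 in *Sox17*-*Erg* samples (adjusted p = 0.0081 and 0.0065). The rise of *Sema3g* (5.84), *Sema6a* (2.36) and *Efna1* (2.36) was called in *Sox17*-*Erg* samples (adjusted p = 0.00038, 0.0026 and 0.00048), where the control changes were -0.86, -1.09 and 0.22 (adjusted p = 0.64, 0.082 and 0.54). The turn of *Epha4* lay in the control samples, with a rise of 3.23 (adjusted p = 0.0009) against 0.23 in *Sox17*-*Erg* samples (adjusted p = 0.66). *Sema3c* fell by 2.39 in *Sox17*-*Erg* samples (adjusted p = 0.0035) and had a control change of 0.25 (adjusted p = 0.62). The *Sox17*-*Erg* rise of *Ephb3* ended without *Sox17*-*Erg* Day 3 replicate 1 (adjusted p = 0.053), and the control fall of *Plxnd1* without control Day 3 replicate 2 (adjusted p = 0.052).

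*Ephb1*, *Ephb6* and *Plxna4* rose from Day 3 to 4 weeks in both groups, and *Epha2*, *Plxna1* and *Sema4d* fell in both. *Ephb1* rose by 5.22 on the log2 scale in control and 4.40 in *Sox17*-*Erg* samples (adjusted p = 0.00074 and 0.00056), and *Plxna4* by 2.79 and 2.29 (adjusted p = 0.0044 and 0.0096). With the block the *Sox17*-*Erg* falls were 7 in place of 5, with *Plxna1* no longer among them (adjusted p = 0.092), and the control rises were 10 in place of 4 (15.2% and 21.7% of the members, against 17.6% and 16.1% of all genes with the block). The blocked falls in *Sox17*-*Erg* samples added *Efnb1*, *Ephb2* and *Sema3d* (adjusted p = 0.017, 0.0029 and 0.014), and the blocked rises added *Sema6d* (adjusted p = 0.017) and lost *Sema4f* (adjusted p = 0.09). In control samples the rises added *Efna5*, *Epha3*, *Epha7*, *Sema3e*, *Sema6b* and *Sema6d* (adjusted p = 0.033, 0.043, 0.011, 0.0022, 0.043 and 0.022), and the falls lost *Plxnb3* and *Sema4g* (adjusted p = 0.12 and 0.066). The *Sox17*-*Erg* rise of *Plxna4* ended without either *Sox17*-*Erg* library of Day 3 (adjusted p = 0.057). The fall of *Sema4d* ended without *Sox17*-*Erg* 4 weeks replicate 1 in *Sox17*-*Erg* samples (adjusted p = 0.051) and without control Day 3 replicate 1 in control samples (adjusted p = 0.058). That of *Plxna1* ended without any 1 library in *Sox17*-*Erg* samples (adjusted p = 0.05 to 0.25) and without control Day 3 replicate 2 in control samples (adjusted p = 0.05). The fall of *Epha2* ended without any 1 of 9 libraries in *Sox17*-*Erg* samples (adjusted p = 0.05 to 0.26), all those of Day 3 and 4 weeks and *Sox17*-*Erg* Day 7 replicate 2. In control samples it ended without control Day 3 replicate 1 or either control of 4 weeks (adjusted p = 0.077 to 0.17).

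Co-receptors and effectors outside the families were counted from lists. Of 32 tested genes of semaphorin and plexin signaling, 5 were higher and 4 lower in *Sox17*-*Erg* samples at Day 3, 10 higher and 1 lower at Day 7, and 9 higher and 4 lower at 4 weeks, with median log2 changes of -0.05, 0.08 and 0.07. These were 28.1%, 34.4% and 40.6% of the list, against 12.3%, 17.4% and 22.9% of all genes. Per direction, the shares of all genes were 7.19% higher and 5.13% lower at Day 3, 9.48% higher and 7.93% lower at Day 7, and 11.9% higher and 11% lower at 4 weeks. *Met*, the receptor of HGF that pairs with PlexinB1, was higher at all 3 time points, with log2 changes of 3.18, 4.82 and 4.92 (adjusted p = 0.0043, 0.00041 and 0.00019). Outside the rule for named genes, and chosen after their values were seen, the neuropilins were called in opposite directions. *Nrp1*, the co-receptor that *Sema3a* acts through, rose by 2.11 at Day 3 and 1.35 at Day 7 (adjusted p = 0.0015 and 0.0052), and the change of *Nrp1* at 4 weeks was 0.25 (adjusted p = 0.47). Its Day 7 call ended in a fit of that time point alone (adjusted p = 0.054). *Nrp2*, the co-receptor of *Sema3f*, fell by 1.19 at Day 3 and 1.11 at 4 weeks (adjusted p = 0.036 and 0.028), with a change of -0.91 at Day 7 (adjusted p = 0.067). *Dpysl3*, a collapsin response mediator that follows semaphorin signals, rose by 1.35, 1.45 and 1.97 (adjusted p = 0.0042, 0.0014 and 0.00019), and *Itga1*, part of the integrin that binds Sema7A, by 0.58, 0.46 and 0.55 (adjusted p = 0.029, 0.048 and 0.019). *Dpysl5*, of the same family as *Dpysl3*, was lower at all 3 (log2 changes -2.37, -3.21 and -1.97, adjusted p = 0.042, 0.0087 and 0.047). Those of *Nrp2* ended without any 1 of 6 libraries at Day 3, both controls and *Sox17*-*Erg* replicate 1 of Day 3, both controls of 4 weeks and *Sox17*-*Erg* 4 weeks replicate 2 (adjusted p = 0.05 to 0.25). At 4 weeks the call of *Nrp2* ended without control Day 3 replicate 2 or any library of 4 weeks (adjusted p = 0.051 to 0.13). The calls of *Met* and *Dpysl3* held in all 12 fits that left out 1 library. The Day 3 change of *Met* was 3.91 without control replicate 1 and 2.59 without *Sox17*-*Erg* replicate 1 of Day 3.

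The calls of *Itga1* ended without any 1 library of Day 3 at Day 3 (adjusted p = 0.093 to 0.15) and without any 1 library but control 4 weeks replicate 1 at Day 7 (adjusted p = 0.052 to 0.29). With a GC-content offset *Itga1* was not called at Day 3 or Day 7 (adjusted p = 0.057 and 0.079). Its Day 7 call also ended with DESeq2's size factors, in a fit of Day 7 alone and with the replicate number as 1 block (adjusted p = 0.052, 0.15 and 0.058). At 4 weeks the call of *Itga1* ended without control replicate 2 or either *Sox17*-*Erg* library of that time point (adjusted p = 0.052 to 0.11). Those of *Dpysl5* ended without any 1 of 7 libraries at Day 3 (both controls of Day 3 and Day 7, *Sox17*-*Erg* Day 3 replicate 1 and both *Sox17*-*Erg* libraries of 4 weeks, adjusted p = 0.055 to 0.26) and without *Sox17*-*Erg* Day 7 replicate 1 at Day 7 (adjusted p = 0.095). At 4 weeks the call of *Dpysl5* ended without any 1 of 9 libraries (all but the *Sox17*-*Erg* libraries of Day 3 and control 4 weeks replicate 1, adjusted p = 0.054 to 0.23) and with the block within time points (adjusted p = 0.055). It ended as well with a looser filter, in a fit of 4 weeks alone, with a GC-content offset and with the block and the offset (adjusted p = 0.054, 0.074, 0.052 and 0.061), and the Day 3 call of *Dpysl5* in a fit of Day 3 alone (adjusted p = 0.064). The change of *Dpysl5* was -3.52 at Day 3 without *Sox17*-*Erg* Day 3 replicate 2 and -1.27 at 4 weeks without control 4 weeks replicate 2.

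Of 26 tested adaptors and effectors of ephrin and Eph signaling, 1 was higher and 2 lower at Day 3, 3 were higher at Day 7, and 7 were higher and 2 lower at 4 weeks, with median log2 changes of 0.05, 0.05 and 0.07. The shares called in edgeR were 11.5%, 11.5% and 34.6%, against 12.3%, 17.4% and 22.9% of all genes. DESeq2 called 5 and 4 of the 26 at Day 3 and Day 7, and 10 and 9 had an unadjusted p under 0.05 in edgeR. *Abl2*, a cytoplasmic tyrosine kinase that shapes the actin cytoskeleton, was higher at all 3 time points, with log2 changes of 0.67, 0.99 and 1.11 (adjusted p = 0.013, 0.0012 and 0.0004). Its Day 3 call ended without either control or *Sox17*-*Erg* replicate 1 of Day 3 (adjusted p = 0.065 to 0.14).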

How the data were processed

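RNA of 12 samples was extracted with TRIzol, prepared with a stranded mRNA kit and sequenced in paired-end reads. Per the labels and the study's methods, reads were demultiplexed with bcl2fastq 2.20.0, trimmed with BBDuk and quantified with Salmon on mm10, and the Salmon version is not given in the sources used here. The authors deposited estimated counts per Ensembl gene, which were rounded to whole numbers. Symbols and coordinates came from GENCODE M21 (GRCm38), and promoter windows from RefSeq. Library totals ran from 19011635 to 41240449 counts, and replicates differed by more than counting error (chi-square per degree of freedom 20.4 to 52.5). Every value column was matched to a sample.

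Genes were filtered with filterByExpr (minimum count 10, minimum total 15), which left 15506, scaled by TMM and fitted in edgeR 4.0.16 (R 4.3.3, limma 3.58.1) with 1 coefficient per group, which left 6 residual degrees of freedom. Genes whose quasi-likelihood p, adjusted by Benjamini-Hochberg over all genes, was under 0.05 were called. Differences of effect between time points were contrasts of the same fit. Values after ± are standard errors of log2 changes, or SDs where so marked. CPM are normalized by TMM, and CPM per kb were divided by the length of the union of all annotated exons of the gene. Counting intervals cover counting error only. The script was run on simulated counts with the same spread for all genes and no replicate structure. That run checks the code and does not measure the error rate on these libraries.

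The labels number the replicates, and deviations of same-numbered libraries from their group means correlated by 0.19, 0.30 and 0.17 between *Sox17*-*Erg* and control at Day 3, Day 7 and 4 weeks. All were over 0.1, so the replicate number was also fitted as a block within each time point (3 residual degrees of freedom). The blocked value is printed where it changed a call. Same-numbered libraries of Day 3 and Day 7 correlated by 0.17 in control and 0.22 in *Sox17*-*Erg* samples. Those of 4 weeks correlated with Day 3 and Day 7 by -0.10 and -0.11 in control samples. In *Sox17*-*Erg* samples these values were -0.05 and -0.05. The deposited column names number the same libraries differently. A pairing within time points is a hint from the data and is not stated by the labels. Alternatives were DESeq2 1.42.0, its size factors, a filter of 10 counts in all, fits of single time points, an adjusted p under 0.01, a minimum log2 change of 1, an offset for GC content, blocks, and leaving out each library.

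The members, lists and tests were chosen with earlier results of these data known. Values in every library are given for members called against control at any time point and for *Ephb4* and *Epha2*. Of the partner lists, genes called at all 3 time points are named, and other genes are named where the replicate block gave a call or were chosen after their values were seen.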

Additional observations from a re-analysis of the deposited data

Results flagged for a closer look

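The effect of *Sox17*-*Erg* over control differed between Day 3 and 4 weeks for 8 members by the interaction test in edgeR. It was larger at 4 weeks by 6.70 on the log2 scale for *Sema3g*, 3.45 for *Sema6a*, 2.45 for *Efnb2*, 2.36 for *Plxnd1*, 2.14 for *Efna1* and 1.63 for *Ephb3*. For *Epha4* and *Sema3c* the difference was -3.0 and -2.64, with the lower effect at 4 weeks. The differences of *Efnb2*, *Ephb3* and *Plxnd1* held in all 12 fits that left out 1 library. Those of *Efna1*, *Epha4*, *Sema3c*, *Sema3g* and *Sema6a* each ended without at least 1 library.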

How the results depend on the processing

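With DESeq2, 15 members were lower at Day 3 in place of 7, and 8 rose with time in control samples in place of 4. With the replicate block within time points, 16 were lower at Day 3, 13 were lower at Day 7 in place of 8, 13 differed in effect between 4 weeks and Day 3 in place of 8, and 10 rose with time in control samples. With that block and a GC-content offset these counts were 13, 13, 13 and 10, and 8 members fell with time in *Sox17*-*Erg* samples in place of 5. The replicate number as 1 block over all libraries gave 8 falls with time in *Sox17*-*Erg* and 8 rises in control samples. Crossing the numbers at 4 weeks, chosen after seeing the data, gave 13 lower at Day 3, 9 falls in *Sox17*-*Erg* and 7 rises in control samples. The block within time points changed no other call than those given with the results. A GC-content offset alone left 4 lower at Day 3, fits of single time points 4 lower at Day 7, and DESeq2's size factors or a filter of 10 counts in all 3 falls in *Sox17*-*Erg* samples. An adjusted p under 0.01 left 4 higher and 1 lower at Day 3, 3 lower at Day 7, 7 lower at 4 weeks, 3 differences of effect, and 2 falls in *Sox17*-*Erg* and 6 in control samples. A minimum log2 change of 1 left 4 lower at Day 3 and 3 falls in *Sox17*-*Erg* samples. Shares of all genes called are given only for the main fit and for the block within time points. The counts under the other settings cannot tell a change of the members from a change in calls of all genes. The cause was not tested.

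Leaving out 1 library at a time gave 3 to 10 higher and 0 to 9 lower members at Day 3, 7 to 10 and 4 to 8 at Day 7, 9 to 12 and 5 to 12 at 4 weeks, 4 to 8 differences of effect, 9 to 15 rises and 1 to 5 falls in *Sox17*-*Erg* samples, and 4 to 7 rises and 5 to 10 falls in control samples. Without a share of all genes for these fits, their counts cannot tell a change of the members from a general one. No called change turned its sign. Changes that were not called did so for *Sema3b* at 4 weeks (0.0098 with the GC-content offset, 0.0322 with the block and the offset, and -0.49 to 0.53 without 1 library) and *Sema4b* at 4 weeks (0.0244 with the offset, 0.0228 with both). Leaving out 1 library did so for *Epha2* at Day 3 (-0.0162 to 0.44), *Epha4* at Day 7 (-0.24 to 0.77), *Epha7* at Day 7 (-0.67 to 0.19), *Plxnd1* at Day 3 (-0.17 to 0.48), *Sema3d* at Day 3 (-0.72 to 0.30) and *Sema4f* at Day 3 (-0.96 to 0.33). With 2 libraries a group, depth and replication limit the changes of members at low counts.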

Other observations

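Other marker lists moved in the same libraries. At Day 3, Day 7 and 4 weeks, 7.19%, 9.48% and 11.9% of all genes were called higher, and 5.13%, 7.93% and 11% lower. The 5 arterial markers were called higher for 2 at Day 3, 4 at Day 7 and 5 at 4 weeks, where they summed to 597 to 616 CPM in *Sox17*-*Erg* and 62.5 to 84.6 CPM in control libraries. Of the 5 venous and lymphatic markers, which include *Ephb4*, 2 were higher at Day 3 and 1 at the later time points, and they summed to 228 to 232 CPM in *Sox17*-*Erg* and 219 to 230 CPM in control libraries at 4 weeks. Of the 5 smooth muscle markers, 3 were higher and 1 lower at Day 7, and 2 were higher and 1 lower at 4 weeks. Of the 6 cell cycle markers 3 were higher at 4 weeks, at 74.6 to 204 against 36.8 to 39.9 CPM summed. At Day 3 they summed to 888 to 1080 CPM in *Sox17*-*Erg* and 326 to 408 CPM in control libraries, where edgeR and DESeq2 called none and 3 had an unadjusted p under 0.05 in each. The 6 macrophage markers summed to 232 to 403 CPM in *Sox17*-*Erg* and 767 to 1190 CPM in control libraries at Day 7, and overlapped between the groups at Day 3 and 4 weeks. Neither tool called 1 at any time point, and 0 had an unadjusted p under 0.05 in edgeR and 1 in DESeq2, at Day 7. Of 4 tested Schwann cell markers 1 was lower at Day 3. The part of these cells in the levels of guidance genes was not tested.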
